A study of Ovis aries with 8 samples.

Results

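The genes described here are 9 components of the vitamin A (retinoid) pathway in cultured fetal sheep hepatocytes: the carriers RBP4 and CRABP2, the dehydrogenases and reductase RDH10, DHRS3, ALDH1A1 and ALDH1A2, and the retinoic acid receptors RARA, RARB and RARG. They were the rows of the deposited gene table whose symbol equalled 1 of the 9 names, and all 9 were found among 27057 rows. The names were chosen with the metformin response of these cells already known, so the metformin change of each of the 9 is a description. No limma p-value is printed for the 9. Whether each passed the limma threshold, and the authors' q-values, are given for them as description only. Hepatocytes treated with metformin, an antidiabetic biguanide, for 24 h (4 libraries) were set against basal hepatocytes without it (4 libraries). The libraries come from 4 numbered cell preparations of Ovis aries, each with 1 library of either kind. Neither the dose nor the vehicle of metformin, nor how many animals the preparations came from, is stated in the labels.

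Vitamin A travels in blood as retinol bound to RBP4, which the liver secretes, and is stored as retinyl ester, in the liver mostly in stellate cells. Inside cells retinol is oxidised to retinaldehyde and then, irreversibly, to retinoic acid, the ligand of nuclear receptors that pair with retinoid X receptors on DNA. CRABP2 carries retinoic acid to the nucleus, and CYP26 enzymes degrade it. Several genes of the pathway are themselves targets of retinoic acid, DHRS3, CRABP2 and RARB among them, as known mainly from human and mouse cells.

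Levels are FPKM, fragments normalised for transcript length and sequencing depth, as the authors deposited them. They can be set side by side between genes, but the number of reads behind them is unknown. Summed over all genes, the FPKM per library was 1138642 to 1257764 with metformin and 1024543 to 1197321 in basal cells. All 8 hepatocyte markers were above 0 in every library, with summed levels of 10605.6 to 27269.5 FPKM with metformin and 19872.9 to 33533.1 in basal cells. By the threshold given below, 5 of the 8 were called lower and 0 higher, against 24.1% lower and 19.8% higher over all genes tested. Of those not called, ALB and SERPINA1 were lower in all 4 preparations and FGB in 3. Markers of stellate cells and fibroblasts were also present: 12 of 13 had a row, none was at 0 in any library, and their summed level was 745 to 2007 FPKM with metformin and 1756 to 3522 in basal cells. Of these 12, 10 were called lower and 0 higher, beside the same shares over all genes. The 2 not called, PDGFRB and RGS5, were lower in all 4 preparations. The part of either cell type in the results below was not tested, and in such bulk RNA fewer cells of a type and less RNA per cell cannot be told apart.

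With metformin CRABP2, RDH10 and ALDH1A2 were higher, and RBP4, DHRS3, ALDH1A1, RARA, RARB and RARG were lower, each in all 4 preparations; of all genes tested, 60.2% had 1 direction in all 4. The largest proportional change was that of CRABP2, whose mean FPKM was 10.3 times the basal mean. Changes were estimated with limma over all genes, with preparation as a block, and are differences of log2(FPKM + 1), which understate the change of genes at low FPKM. A gene was called at a Benjamini-Hochberg adjusted p under 0.05. All 9 members were called, 3 higher and 6 lower, against 43.9% of the 13141 genes tested (19.8% higher and 24.1% lower), and since this contrast had a part in the choice of the members nothing is read from that count. The median log2 change was -0.46 over the members and -0.04 over all genes tested. For 7 members the metformin and basal libraries did not overlap, as was so for 25.9% of the genes tested; RBP4 and RARG overlapped.

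Without the preparation block 3 members were called higher and 2 lower, against 19.2% of all genes called. The calls of RBP4, RARA, RARB and RARG ended in that fit. Without preparation 1 the calls of RBP4 and RARA ended (log2 changes -0.42 and -0.39), where 28% of all genes were called. Without preparation 2 that of RARA ended (-0.35; 31.4% of all genes called), and without preparation 3 that of RARG (-0.62; 39.8% called). Without preparation 4 those of RBP4 (-0.40), RARA (-0.41) and RARG (-0.57) ended, with 31.2% of all genes called. Without preparation 4, therefore, 3 members were called lower in place of 6.

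**Figure D1:**
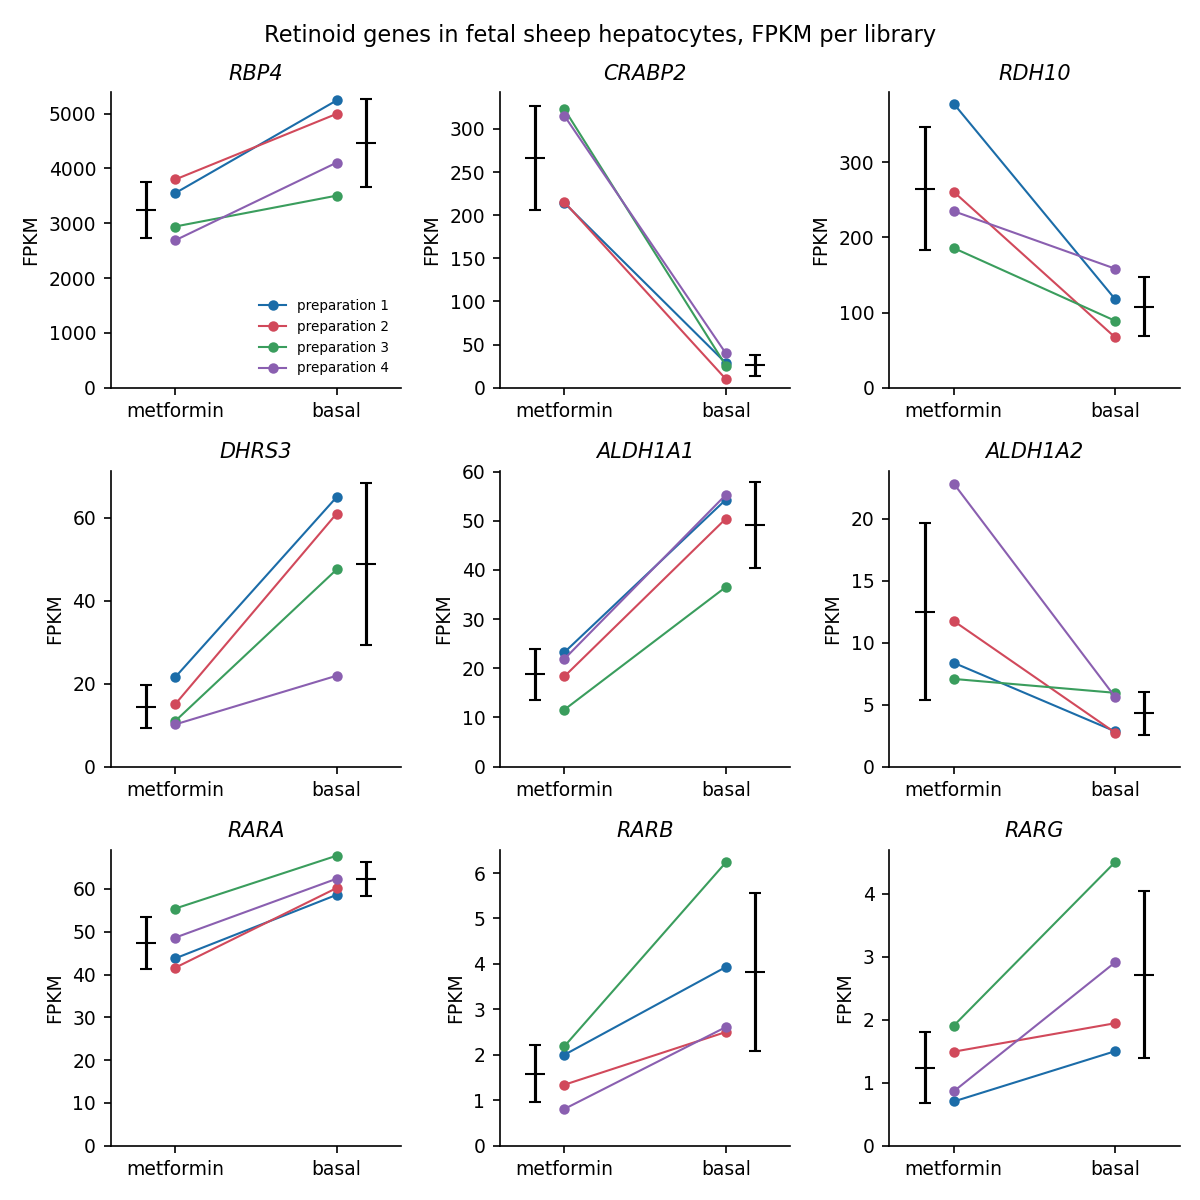
FPKM of the 9 retinoid genes in each library (vertical axis, linear, from 0), metformin left and basal right; lines join both libraries of a preparation, and the black mark with its bar is the group mean ± SD (n = 4). CRABP2 lies at 214 to 323 FPKM with metformin and at 9.83 to 39.7 in basal cells, whereas RBP4 ranges from 2689 to 3799 with metformin and from 3505 to 5243 in basal cells.

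RBP4 (ENSOARG00000003236), the plasma carrier of retinol, had by far the highest level of the set. Its FPKM in preparations 1 to 4 was 3551, 3799, 2941 and 2689 with metformin, against 5243, 4998, 3505 and 4108 in basal cells. Every preparation was lower with metformin, but the highest metformin libraries lay above the lowest basal library. The means were 3245 ± 517 with metformin and 4463 ± 804 basal (SD, n = 4 each), and the log2 change was -0.46 ± 0.11 (SE). Ranked over all rows of the table, RBP4 stood between place 30 and place 51 with metformin and between place 19 and place 28 in basal cells.

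CRABP2 (ENSOARG00000006212), the retinoic acid carrier, measured 214, 215, 323 and 315 FPKM in the metformin libraries of preparations 1 to 4, against 28.5, 9.83, 25.5 and 39.7 in the basal ones. The lowest metformin library was thus several times above the highest basal library. Mean FPKM was 267 ± 60.3 with metformin and 25.9 ± 12.3 in basal cells (SD, n = 4 each), and the log2 change was 3.44 ± 0.24 (SE). The metformin to basal FPKM ratio was 7.52, 21.9, 12.7 and 7.94 in preparations 1 to 4, and the largest ratio came from the preparation with the lowest basal level. Basal libraries differed widely: their SD on the log2 scale was 0.82, above that of 92.3% of the genes tested, whereas the SD over metformin libraries was 0.33, above that of 62.2%. Set against RBP4 in the same library, CRABP2 amounted to 8.59% ± 3.19 of the RBP4 FPKM with metformin and 0.608% ± 0.324 in basal cells.

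**Figure D2:**
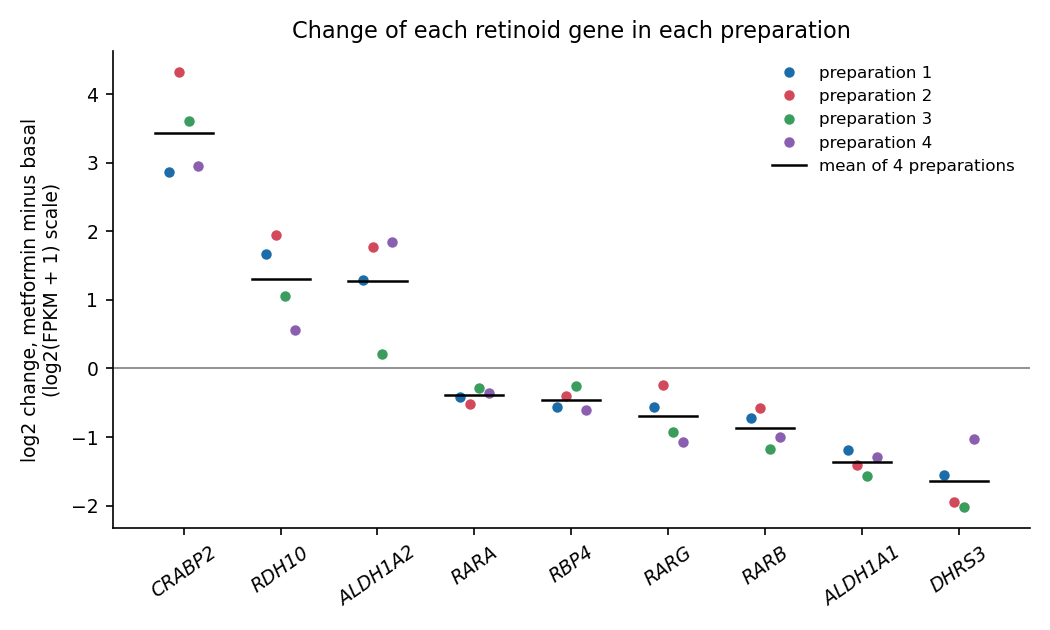
Change of each member in each preparation (points, colour by preparation) on the log2(FPKM + 1) scale, metformin minus basal, with the mean of the 4 preparations as a black line. All points of CRABP2, RDH10 and ALDH1A2 are above 0 and all points of the other 6 genes below it; ALDH1A2 spans 0.22 to 1.85.

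RDH10 and DHRS3 act on the same step in opposite directions, RDH10 oxidising retinol to retinaldehyde and DHRS3 reducing retinaldehyde back to retinol. RDH10 (ENSOARG00000005790) had 378, 261, 186 and 235 FPKM in metformin libraries 1 to 4, against 118, 66.9, 88.9 and 158 in basal libraries. These groups did not overlap, although the lowest metformin and the highest basal library were near each other. Its means were 265 ± 81.5 with metformin and 108 ± 39.5 basal (SD, n = 4 each), with a log2 change of 1.31 ± 0.22 (SE). DHRS3 (ENSOARG00000014744) had 21.6, 15.1, 11.005 and 10.2 FPKM with metformin, against 65.0, 61.1, 47.6 and 21.9 in basal cells. The preparations kept the same order in both groups, preparation 1 highest and preparation 4 lowest, and the highest metformin library lay just under the lowest basal one. DHRS3 averaged 14.5 ± 5.21 with metformin and 48.9 ± 19.5 in basal cells (log2 change -1.64 ± 0.18, SE). The ratio of RDH10 to DHRS3 FPKM within a library was 16.9 to 23.0 with metformin and 1.09 to 7.21 in basal cells. Its highest basal value came from preparation 4, whose basal DHRS3 was the lowest and basal RDH10 the highest of the basal libraries.

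ALDH1A1 and ALDH1A2 both oxidise retinaldehyde to retinoic acid, and their levels went opposite ways. ALDH1A1 (ENSOARG00000012705) stood at 23.3, 18.4, 11.6 and 21.9 FPKM with metformin in preparations 1 to 4, against 54.3, 50.5, 36.5 and 55.3 in basal cells. Preparation 3 was lowest in both groups, and no metformin library reached a basal one. The means were 18.8 ± 5.22 with metformin and 49.2 ± 8.66 basal (SD, n = 4 each; log2 change -1.37 ± 0.11, SE). ALDH1A2 (ENSOARG00000020860) stood at 8.37, 11.7, 7.07 and 22.8 FPKM with metformin, against 2.85, 2.74, 5.95 and 5.62 in basal cells. Preparation 4 was far above the other metformin libraries, and preparation 3 differed little between its libraries. The log2 change of ALDH1A2 was 1.28 ± 0.27 (SE); in preparation 3 it was 0.22, and without preparation 3 the mean over the others was 1.63. The ratio of ALDH1A1 to ALDH1A2 FPKM was 0.961 to 2.78 with metformin and 6.14 to 19.1 in basal cells.

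The third enzyme of this kind, ALDH1A3, is not among the 9 genes and belonged to a wider list of the pathway. It rose to 23.6 ± 7.81 FPKM with metformin, against 7.71 ± 3.61 in basal cells (log2 change 1.51 ± 0.17, SE; limma adjusted p = 0.00131; higher in 4 of 4 preparations). Summed over ALDH1A1, ALDH1A2 and ALDH1A3, a sum chosen after the values were seen, the level was 54.9 ± 6.71 FPKM with metformin and 61.1 ± 9.32 in basal cells, and the groups overlapped. The make-up of that sum differed. ALDH1A1 made up 24.5% to 37.6% of it with metformin and 74.4% to 85.7% in basal cells, and ALDH1A3 made up 23.3% to 60.6% with metformin and 8.26% to 18.6% in basal cells.

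**Figure D3:**
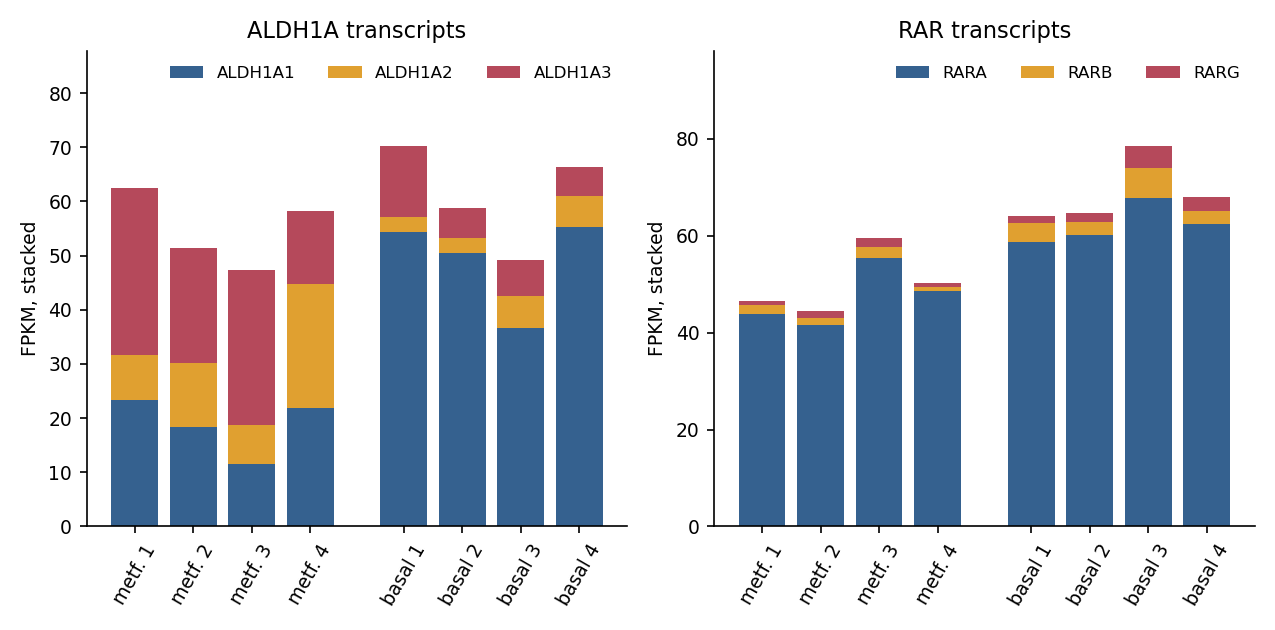
Stacked FPKM per library of ALDH1A1, ALDH1A2 and ALDH1A3 (left) and of RARA, RARB and RARG (right), with the 4 metformin libraries left of the 4 basal ones in each panel and numbers giving the preparation. ALDH1A1 makes up at most 37.6% of its stack with metformin and at least 74.4% in basal cells; RARA makes up at least 93.1% of its stack with metformin and at least 86.3% in basal cells.

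Among the receptors, RARA (ENSOARG00000014119) was the main transcript. It measured 43.8, 41.6, 55.4 and 48.6 FPKM with metformin in preparations 1 to 4, against 58.6, 60.2, 67.8 and 62.4 in basal cells. All metformin libraries were below all basal libraries, by a small margin for preparation 3. RARA averaged 47.4 ± 6.13 with metformin and 62.3 ± 3.99 basal (SD, n = 4 each; log2 change -0.39 ± 0.10, SE). Its basal level was the steadiest of the set, with an SD of 0.09 on the log2 scale, above that of 3.93% of the genes tested.

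RARB and RARG were near the floor of the tested range. RARB (ENSOARG00000004373) had 2.00, 1.34, 2.19 and 0.809 FPKM with metformin, against 3.93, 2.50, 6.24 and 2.61 in basal cells, with no overlap (log2 change -0.87 ± 0.15, SE). RARG (ENSOARG00000016626) had 0.702, 1.49, 1.91 and 0.862 FPKM with metformin, against 1.50, 1.94, 4.50 and 2.91 in basal cells, and its groups overlapped (log2 change -0.70 ± 0.17, SE). At such levels the log2 change depends on the pseudocount: it was -1.21 for RARB and -1.05 for RARG with 0.1 added, and -0.41 and -0.29 with 5 added. Summed over the 3 receptors the level was 50.2 ± 6.68 FPKM with metformin and 68.8 ± 6.70 in basal cells, of which RARA made up 93.1% to 96.7% with metformin and 86.3% to 93.1% in basal cells. Preparation 3 had the highest level of each receptor in both groups. The summed stellate and fibroblast markers were also highest in preparation 3, at 2007 FPKM with metformin and 3522 in basal cells. ACTA2 of that list was highest in preparation 1, at 866 FPKM with metformin and 1249 in basal cells. DES with metformin was also highest in preparation 1 (29.9 FPKM, 23.2 in preparation 3). So was RGS5 in basal cells (55.0, 16.0 in preparation 3). RELN with metformin was highest in preparation 2 (5.63, 4.49 in preparation 3). The other matched markers of the list were highest in preparation 3 in both groups. The summed macrophage markers were likewise highest in preparation 3, at 2011 FPKM with metformin and 2060 in basal cells. In both groups the hepatocyte sum was highest in preparation 1 and the cholangiocyte sum in preparation 4. The part of any cell type in the receptor levels was not tested.

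The order of the levels differed between the groups in the place of CRABP2. With metformin RBP4 was followed by CRABP2 and RDH10, which could not be separated (CRABP2 was the higher in 2 of 4 libraries), then by RARA, ALDH1A1, DHRS3, ALDH1A2, RARB and RARG. Of the later neighbours, DHRS3 exceeded ALDH1A2 in 3 of 4 libraries and RARB exceeded RARG in 2 of 4, so neither pair was separate. In basal cells the order was RBP4, RDH10, RARA, ALDH1A1, DHRS3, CRABP2, ALDH1A2, RARB and RARG. There ALDH1A1 exceeded DHRS3 in 1 of 4 libraries, DHRS3 exceeded CRABP2 in 3 of 4, ALDH1A2 exceeded RARB in 2 of 4 and RARB exceeded RARG in 3 of 4. The remaining neighbours kept their order in all 4 libraries of their group. Over all rows of the table CRABP2 ranked between place 456 and place 710 with metformin and between place 3798 and place 8456 in basal cells.

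The authors' deposited table gives CRABP2 a fold change of 10.31 and, with negative values for lower means, DHRS3 one of -3.38. Of the 9 genes, 7 had a q-value in the authors' deposited table, under 0.05 for 5 of these 7, as for 37.4% of the 7209 rows with a q-value. ALDH1A2 and RDH10 had q-values of 0.0727 and 0.0529 in the authors' deposited table, and RARB and RARG had none, although limma called all 4.

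The wider pathway was described with 5 lists of genes that are not among the 9, written from knowledge of the pathway with earlier results of these data known: carriers and storage, other dehydrogenases, retinoic acid clearance, receptor partners, and known response genes. They hold 79 genes, of which 67 had a row and 52 were tested. Of the 52, 12 rose and 16 fell, with a median log2 change of -0.06, against 19.8% higher and 24.1% lower over all genes tested. Without the preparation block 4 rose and 5 fell, where 19.2% of all genes tested were called in either direction. Without preparation 1, 9 rose and 10 fell, where 28% of all genes tested were called.

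Among 10 carrier, uptake and storage genes tested, 2 rose, 3 fell and 5 did not pass, beside those same shares over all genes (19.8% higher, 24.1% lower). RBP5, a cellular retinol carrier, fell to 6.58 ± 4.54 FPKM with metformin, against 39.1 ± 34.6 in basal cells (log2 change -2.08 ± 0.25, SE, limma adjusted p = 0.0016). TTR, the plasma partner of RBP4, fell to 29.98 ± 22.3 FPKM, against 72.3 ± 71.2 in basal cells (-0.97 ± 0.19, adjusted p = 0.00818 in limma). FABP5, which can deliver retinoic acid to the receptor PPARD, rose to 433 ± 298 FPKM, against 238 ± 211 (1.18 ± 0.22, adjusted p = 0.00663 in limma), and the lipase gene LIPE rose to 4.27 ± 0.582, against 2.66 ± 0.642 (0.54 ± 0.12, adjusted p = 0.0114 in limma). The direction of each of these 4 genes was shared by all 4 preparations, and their calls ended without the preparation block.

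CRABP1, the other retinoic acid carrier of this family, had 3.53 ± 3.29 FPKM with metformin and 4.43 ± 3.13 in basal cells (log2 change -0.36, 95% interval -0.73 to 0.01, limma adjusted p = 0.0969). At this low level the change was -0.20 without preparation 4. It was -0.16 with 5 added in place of 1 and -0.52 with 0.1 added. The retinol importer STRA6 was too low to be tested, at 0.285 to 0.655 FPKM with metformin and 0.523 to 1.01 in basal cells. LRAT, which esterifies retinol, had no row under that symbol and so was not analysed here.

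Of 13 other dehydrogenases, reductases and oxidases tested, 2 rose, 7 fell and 4 did not pass, with a median log2 change of -0.82. Over all genes tested 19.8% were called higher and 24.1% lower, with a median of -0.04. Beside ALDH1A3, the genes with the lowest p fell: the aldehyde oxidase AOX1 to 13.7 ± 7.11 FPKM with metformin, against 49.2 ± 22.6 in basal cells (log2 change -1.80 ± 0.18, SE), the alcohol dehydrogenase ADH5 to 72.4 ± 11.1, against 142 ± 5.99 (-0.97 ± 0.11), and the retinol saturase RETSAT to 7.47 ± 0.979, against 17.8 ± 6.03 (-1.11 ± 0.17). Their limma adjusted p-values were 0.00111, 0.00153 and 0.00325. For each of them all metformin libraries were below all basal ones, where 25.9% of all genes tested had groups that did not overlap. RDH11, another retinaldehyde reductase, had 40.0 ± 11.6 FPKM with metformin and 31.7 ± 6.42 in basal cells and did not pass (0.29, 95% interval -0.09 to 0.68, adjusted p = 0.181 in limma), but without preparation 4, the 1 preparation in which it was lower, the change was 0.47 and passed (adjusted p = 0.0496 in limma); without preparation 2 it was 0.18.

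Of the 3 CYP26 genes, which degrade retinoic acid, 1 was tested. CYP26B1 rose in all 4 preparations, with 6.80, 4.26, 27.4 and 5.99 FPKM with metformin in preparations 1 to 4, against 1.92, 0.681, 10.4 and 2.45 in basal cells (log2 change 1.35 ± 0.14, SE, limma adjusted p = 0.00112). Preparation 3 was highest in both groups, so the groups overlapped although each preparation was higher with metformin. Without the block its adjusted p in limma was 0.188. CYP26A1 had at most 0.0850 FPKM in metformin libraries and at most 0.0479 in basal ones and was not tested.

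Of 16 receptor partners and cofactors tested, 4 rose, 1 fell and 11 did not pass, against 19.8% higher and 24.1% lower over all genes. The retinoid X receptors showed no change past the threshold: RXRA had 27.2 ± 3.52 FPKM with metformin and 30.8 ± 2.91 in basal cells (log2 change -0.18, 95% interval -0.47 to 0.11, limma adjusted p = 0.272), and RXRB had 29.2 ± 1.72 with metformin and 27.7 ± 3.02 in basal cells (0.08, -0.16 to 0.31, adjusted p = 0.565 in limma). RXRG stayed under 0.5 FPKM in all libraries. NRIP1, a corepressor of nuclear receptors that retinoic acid induces in human cells, rose to 96.3 ± 23.6 FPKM, against 28.8 ± 8.76 in basal cells (1.73 ± 0.20, SE, adjusted p = 0.00157 in limma). Its groups did not overlap, as was so for 25.9% of the genes tested. The orphan receptor NR2F2 fell to 12.2 ± 6.49 FPKM, against 29.97 ± 6.20 (-1.32 ± 0.18, adjusted p = 0.00211 in limma). Smaller rises of PPARD (0.49, adjusted p = 0.0219 in limma) and of the acetyltransferase CREBBP (0.35, adjusted p = 0.0259 in limma) did not hold in every subset. The limma adjusted p of PPARD was 0.0685, 0.0646 and 0.0702 without preparation 1, 2 or 4, and that of CREBBP was 0.118, 0.0569, 0.0564 and 0.0731 without preparations 1 to 4 in turn.

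Of 13 genes listed as known to respond to retinoic acid in other cells, 4 rose, 5 fell and 4 did not pass. Their median log2 change was -0.25. Over all genes tested 19.8% were called higher and 24.1% lower, with a median of -0.04. TGM2, a transglutaminase, rose to 118 ± 54.7 FPKM with metformin, against 42.7 ± 18.1 in basal cells (log2 change 1.43 ± 0.21, SE, limma adjusted p = 0.00283). SOX9, a transcription factor of bile duct and progenitor cells, rose to 33.2 ± 11.8, against 13.6 ± 7.27 (1.31 ± 0.15, adjusted p = 0.00141 in limma), and FOXA1, a pioneer factor of liver genes, fell to 14.5 ± 2.12, against 34.8 ± 8.90 (-1.18 ± 0.17, adjusted p = 0.0027 in limma). NRIP1 was also on this list. Of the 5 cholangiocyte markers with a row, 4 were tested. SOX9 was called higher, KRT7 was called lower, and 2, EPCAM and SPP1, were not called. Over all genes tested the shares were those given above. The summed level of the 5 markers was 1257 to 4238 FPKM with metformin and 1390 to 8735 in basal cells. Nearly all of that sum was SPP1, at 1176 to 4150 FPKM with metformin and 1274 to 8648 in basal cells. The part of such cells in the SOX9 change was not tested.

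**Figure D4:**
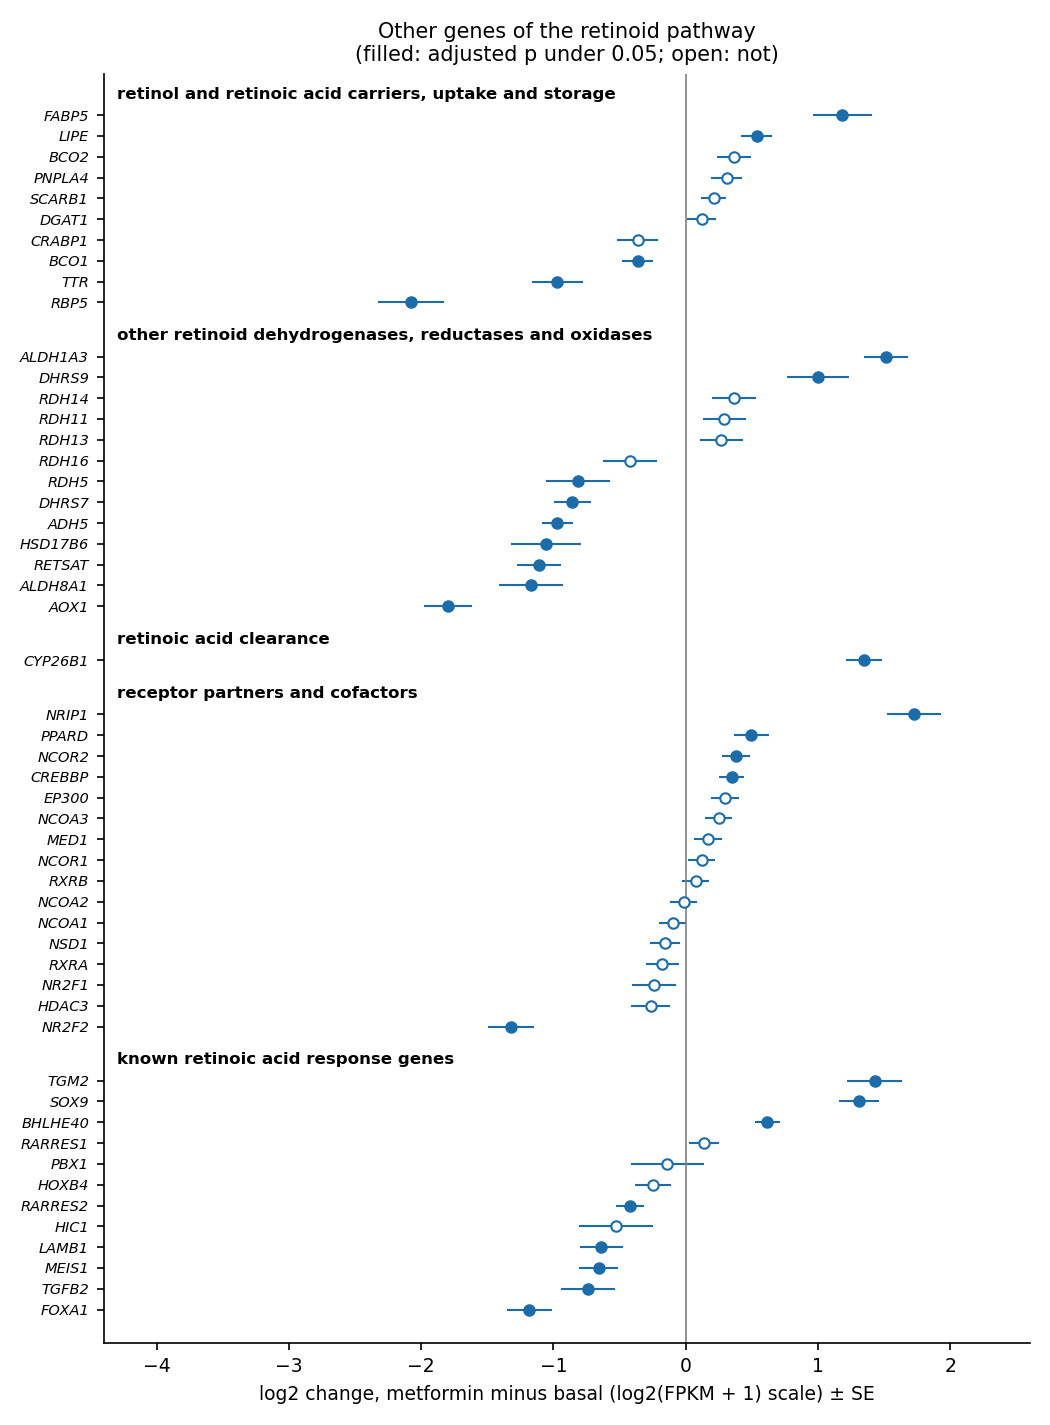
Log2 change, metformin minus basal, with its SE (horizontal axis, log2(FPKM + 1) scale) for the 52 tested genes of the wider retinoid pathway, grouped by list; a gene on 2 lists is drawn once, filled points passed the limma threshold and open points did not. ALDH1A3, CYP26B1, NRIP1, TGM2 and SOX9 lie to the right, and RBP5, AOX1, NR2F2 and FOXA1 to the left.

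The genes whose 4 per-preparation changes were nearest to those of CRABP2, by root mean square difference on the log2 scale, were CYP3A24, a cytochrome P450 (0.709), the small heat shock protein gene CRYAB (0.805), TOX2, a DNA-binding factor (0.820), the stress cytokine GDF15 (0.901) and the growth factor FGF16 (0.921). Their log2 changes were 2.95, 2.77, 2.94, 3.21 and 2.64, beside 3.44 for CRABP2. Their order rests on the settings: FGF16 had 3.58 and CRABP2 3.50 with 0.1 added in place of 1, but 1.52 and 3.22 with 5 added. FGF16 was low in basal cells, at 0.254 to 3.71 FPKM. Without preparation 3, GDF15 had 3.61 and CRABP2 3.38. CYP3A24 had 130 ± 96.7 FPKM with metformin and 19.9 ± 22.7 in basal cells, and CRYAB had 6383 ± 971 with metformin and 952 ± 259 in basal cells. This likeness rests on 4 preparations and was the criterion by which the genes were taken. As hepatocyte genes beside the members, HNF4A fell to 11.7 ± 3.78 FPKM with metformin, against 55.0 ± 21.5 in basal cells (log2 change -2.10 ± 0.17, SE, limma adjusted p = 0.000701), and ALB had 1280.1 ± 1070.0 FPKM with metformin and 1775 ± 1305 in basal cells, which did not pass (-0.46, 95% interval -0.87 to -0.05 before adjustment, adjusted p = 0.0701 in limma). The change of ALB was -1.12 in preparation 2 and between -0.24 and -0.23 in the others; without preparation 2 it was -0.23, and under quantile normalization it was -0.55 and passed (adjusted p = 0.0489 in limma).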

How the data were processed

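Polyadenylated RNA of 8 hepatocyte libraries was sequenced after a standard Illumina preparation, per the labels' protocols. The authors made FPKM values with Cufflinks on Oar_v3.1, per the submitters' processing notes. For the aligner, annotation release and versions, nothing is stated in the labels. The authors' deposited table also holds group mean FPKM, a signed fold change (a score), p-values and, for part of the rows, q-values with a score of 99 elsewhere.

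Library columns were matched to samples by the labels' descriptions. Placeholders in 4 cells were set to missing; none was in a gene reported here. Genes with at least 1 FPKM in at least 4 of 8 libraries (13141) entered limma 3.58.1 (R 4.3.3) as log2(FPKM + 1), with a preparation block, a mean-variance trend and 2-sided Benjamini-Hochberg adjustment. Deviations from the group means correlated between both libraries of a preparation (r = 0.489 to 0.585), and the labels number the preparations. With the block, SEs and p-values rest partly on how the metformin change of a gene varies between preparations, which may not be separate animals. They rest partly also on other genes of similar level, since limma moderates the variances (prior degrees of freedom 4). The SE of a gene therefore need not follow its own spread. The SD of the change between preparations was 0.67 for CRABP2 and 0.10 for RARA, beside SEs of 0.24 and 0.10. Summaries used Python 3.11.15. FPKM holds no depth, so no counting interval is given.

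Members and lists were chosen with earlier results of these data known. The genes named were the 9 members, up to 4 called genes of lowest p per list, 14 genes fixed by name, and the 5 nearest CRABP2; 1 other listed gene is not reported here. Of the marker lists, endothelial markers had 3 of 7 tested called lower, macrophage markers 4 of 8 lower and 1 higher, and erythroid markers 0 of 3 called. Over all genes tested 24.1% were called lower and 19.8% higher. Alternatives were other pseudocounts, filters and scalings, no block, and each preparation left out.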

Additional observations from a re-analysis of the deposited data

Results flagged for a closer look

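Of 78 groups of 4 libraries examined over the named genes, 6 had 1 library set apart from the other 3. The gap was above Dixon's critical share of the group's range. For independent, normally distributed values chance alone flags about 1 in 20 groups. Whether that rate holds for FPKM, with both groups of a gene from the same preparations, was not tested. None of the 9 members was among the 6 flagged groups. CYP26B1 had 27.4 FPKM in the metformin library of preparation 3, and the next highest metformin library had 6.80. NR2F2 had 21.9 FPKM in the metformin library of preparation 3, and the next had 9.22. ALDH1A3 had 13.1 FPKM in the basal library of preparation 1, and the next had 6.61. CRABP1 had 9.11 FPKM in the basal library of preparation 2, and the next had 3.11. CREBBP was lowest in preparation 1 in both groups, at 33.8 FPKM in the metformin library, where the next had 39.4, and at 25.5 FPKM in the basal library, where the next had 31.3.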

How the results depend on the processing

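Over all genes, 2605 were called higher and 3164 lower; without the preparation block 1272 and 1246 were, and with 1 preparation left out 1679 to 2307 and 1995 to 2923. Members called lower numbered 6, but 2 without the block and 3 to 5 with 1 preparation left out; 3 were called higher in every alternative run. Of the wider lists 12 genes were called higher and 16 lower, but 4 and 5 without the block and 8 to 13 and 10 to 15 with 1 preparation left out. Without the block the log2 change of each member was the same and its SE larger, as for RBP4 (0.21 in place of 0.11). Why the counts moved with a preparation left out was not tested. Over the alternatives each member kept its direction, and 13 of 97 member values lost their call: 4 without the block, RBP4 with no filter on low values, RARG under quantile normalization and 7 with a preparation left out. The last were RBP4 without preparations 1 and 4, RARA without preparations 1, 2 and 4 and RARG without preparations 3 and 4. RARB and RARG gave no value at a mean FPKM of at least 5. Of 295 values of the other named genes, 15 lost a call and 2 gained 1 (RDH11 without preparation 4 and ALB under quantile normalization), and none changed sign. FPKM holds no depth, so the precision of low genes such as RARG is unknown.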

Other observations

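CRABP2 was also set against the related carrier CRABP1 in the same library, a comparison chosen after the values were seen. The CRABP2 to CRABP1 FPKM ratio was 25.7 to 324 with metformin and 1.08 to 15.7 in basal cells. In the basal library of preparation 2 both retinoic acid carriers stood at similar levels, 9.83 FPKM for CRABP2 and 9.11 for CRABP1.

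The plasma pair of RBP4 and TTR was lower with metformin for both genes, but TTR varied far more between preparations. The RBP4 to TTR FPKM ratio was 56.9, 146, 236 and 141 with metformin in preparations 1 to 4, against 30.2, 72.8, 200.4 and 140.5 in basal cells. It was higher with metformin in each preparation, by very little in preparation 4.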
